A study of Mus musculus with 27 samples.

Results

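Cerebellar tumours of 2 mouse lines were compared gene by gene: 7 tumours labelled Olig2-tva-cre:SmoM2 and 3 labelled Math1-cre:SmoM2, which together make up 10 of the 27 Affymetrix arrays of the study. Both lines carry SmoM2, a permanently active form of the Hedgehog pathway protein Smoothened, and differ in the driver of the cre recombinase that switches it on. The 17 other arrays held Tlx3-cre:SmoM2 tumours (3), hGFAP-cre:SmoM2 tumours (6), Ptc1+/- tumours (2) and cerebellum without tumour (6), and entered the model only to share its estimate of the spread. No age, strain, sex or copy number of the alleles is given for any group in the sources used here, and the labels speak of biological replicates without tying each to an animal, so every p-value here reflects the spread among these arrays only. By its title the study asked about the acquisition of a granule neuron precursor identity in tumours that Hedgehog signalling induces, and this pair of lines sets a lineage driver against a driver of earlier, broader progenitors.

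Medulloblastoma is a tumour of the cerebellum, and its Hedgehog form resembles the granule neuron precursor, the cell that multiplies at the surface of the young cerebellum under the mitogen Sonic hedgehog before it moves inward as a granule neuron. Sonic hedgehog binds Patched, which releases Smoothened, and Gli transcription factors then switch on genes such as Gli1, Ptch1 and Mycn. Math1 (the gene Atoh1) is the transcription factor that sets granule neuron precursor fate in the rhombic lip, so Math1-cre acts in that lineage. Olig2 is a transcription factor of neural progenitors and of the oligodendrocyte lineage, and tva is a viral receptor encoded in the same cassette as cre. A tumour also holds cells in which cre did not act, such as vessels and immune cells. In such bulk RNA, fewer cells of a type and less RNA per cell cannot be told apart.

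With all 27 arrays in the model, 4 of 13527 genes passed an adjusted p under 0.05 (0.0296%), 2 higher and 2 lower in Olig2 tumours (0.0148% each). Epha3, a receptor tyrosine kinase that binds ephrin-A ligands on neighbouring cells, was 6.46-fold higher. Itih3, a secreted heavy chain of the inter-alpha-trypsin inhibitor family that attaches to hyaluronan in the matrix, was 4.39-fold higher. Ehbp1, which links endocytic vesicles to actin, was 3.78-fold lower. Otx1, a homeodomain transcription factor of the developing brain, was at least 13.6-fold lower, a bound because it lay at the floor on 4 of the 7 Olig2 arrays.

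RefSeq's promoter table on build GRCm38.p6 held a window for 3 of these 4 genes, 250 bases before to 50 after the annotated start, and they are shown because these genes separated the groups on every array. All 3 windows lie on the minus strand and are written 5′ to 3′: Epha3 at chr16:63864126-63864425, Itih3 at chr14:30923538-30923837 and Ehbp1 at chr11:22286746-22287045. Capitals mark the letters of any searched motif.
Epha3: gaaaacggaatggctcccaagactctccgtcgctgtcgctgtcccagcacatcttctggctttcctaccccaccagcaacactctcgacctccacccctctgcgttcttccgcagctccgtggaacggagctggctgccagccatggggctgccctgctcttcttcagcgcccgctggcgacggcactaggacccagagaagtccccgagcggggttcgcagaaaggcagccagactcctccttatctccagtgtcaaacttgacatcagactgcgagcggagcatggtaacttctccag
Itih3: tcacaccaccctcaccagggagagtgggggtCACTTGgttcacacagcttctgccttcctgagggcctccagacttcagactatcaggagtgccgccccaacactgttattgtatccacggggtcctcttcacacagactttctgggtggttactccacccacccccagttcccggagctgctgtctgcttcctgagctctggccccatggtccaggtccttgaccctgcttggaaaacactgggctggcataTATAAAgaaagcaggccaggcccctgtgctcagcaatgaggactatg
Ehbp1: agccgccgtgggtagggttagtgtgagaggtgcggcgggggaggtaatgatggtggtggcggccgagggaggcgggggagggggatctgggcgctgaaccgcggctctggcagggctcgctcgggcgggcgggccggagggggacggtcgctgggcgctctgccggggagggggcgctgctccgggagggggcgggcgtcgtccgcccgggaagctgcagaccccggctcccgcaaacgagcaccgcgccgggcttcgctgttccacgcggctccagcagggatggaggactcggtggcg
Searched on both strands, with no overlap between motifs in these windows, were the Gli motif GACCACCCA, the E-box CANNTG, the Otx-type motif TAATCC and TATAAA. Itih3 held 1 E-box, from base 32 of its window, and 1 TATAAA, from base 254, just past the annotated start. The other windows held none of the 4. Of all 32851 windows of this length, 72.3% held an E-box, 13.6% TATAAA, 7.06% TAATCC and 0.253% GACCACCCA. GC content was 60.7% for Epha3, 57% for Itih3 and 75.7% for Ehbp1.

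Values are log2 of the rescaled array signal, with a floor of 3.37. Epha3 had 5.85, 5.74 and 5.12 on the 3 Math1 arrays, and its 7 Olig2 arrays ran from 7.43 through a median of 8.50 to 8.90. Every Olig2 array stood above every Math1 array, by a mean of 2.69 (SE 0.47, adjusted p = 0.0304 by limma). In cerebellum without tumour Epha3 was 6.95 ± 0.26 (SD, n = 6), above the Math1 tumours and below the Olig2 tumours. The Tlx3 tumours had 7.59, 7.35 and 6.25, and the hGFAP tumours ran from 5.64 to 8.06.

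Epha3 has 4 probe sets on the array. A separate one that passed the filter differed by 3.41 (SE 0.52, adjusted p = 0.00464 by limma over the 24752 probe sets). The third, at the floor on 2 of 3 Math1 arrays and 1 Olig2 array, had a difference of 2.84 (adjusted p = 0.30) that is not exact, since floor values have no order. The fourth missed the filter and lay at the floor on all 3 Math1 arrays and 1 Olig2 array, so it has no measured level in Math1 tumours.

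Itih3 had 5.91, 5.66 and 5.82 on the Math1 arrays and ran from 7.21 through 7.90 to 8.75 on the Olig2 arrays. The ranges did not overlap, and the groups differed by 2.14 (SE 0.39, adjusted p = 0.0304 by limma). Without tumour Itih3 was 8.60 ± 0.67 (SD, n = 6), and the hGFAP tumours ran from 8.06 to 9.84. The Tlx3 tumours had 6.51, 7.33 and 5.61, the last below all 3 Math1 arrays.

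Ehbp1 had 10.35, 10.02 and 9.92 on the Math1 arrays and ran from 7.60 through 8.35 to 8.74 on the Olig2 arrays. All Olig2 values lay below all Math1 values, and the mean fell by 1.92 (SE 0.34, adjusted p = 0.0304 by limma). Tissue without tumour had 7.90 to 8.31, within the range of the Olig2 tumours.

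Otx1 had 7.76, 7.82 and 7.63 on the Math1 arrays. On the Olig2 arrays it lay at the floor on arrays 1, 4, 5 and 6 and at 3.54, 4.24 and 6.56 on arrays 2, 3 and 7. Array 7 stood far above the other 6 and still below every Math1 array, and the mean fell by at least 3.76 (SE 0.70, adjusted p = 0.0304 by limma). Tissue without tumour was at the floor on 5 of 6 arrays and at 3.53 on the other. The Tlx3 tumours had 5.79, 6.97 and 6.15, and the hGFAP tumours ran from 3.50 to 8.18.

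**Figure D1:**
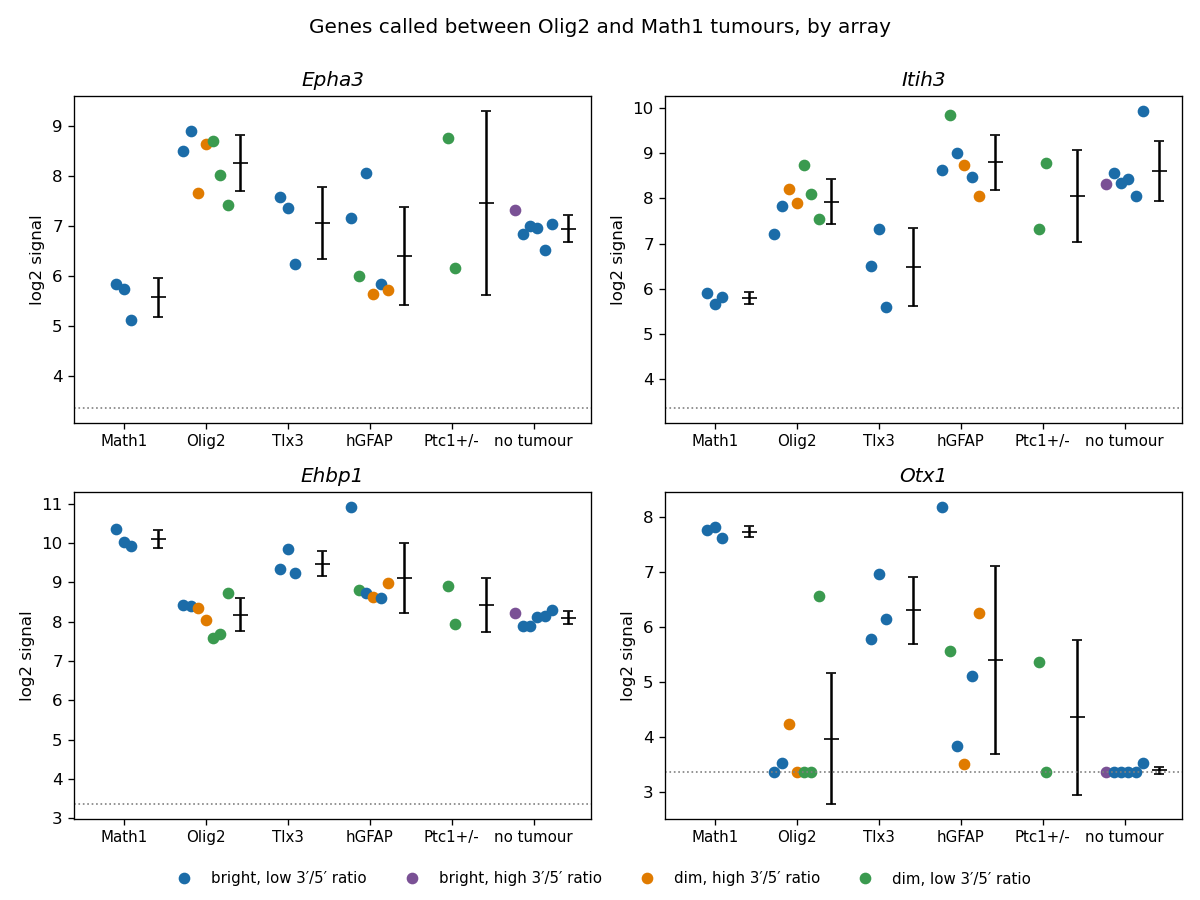
Log2 signal of Epha3, Itih3, Ehbp1 and Otx1 on each of the 27 arrays, by group; each point is an array coloured by its technical set, black bars are mean ± SD, and the dotted line is the floor at 3.37. In all 4 panels the Math1 and Olig2 points do not overlap.

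These 4 calls rest on few arrays. Leaving out any 1 of the 3 Math1 arrays, or Olig2 array 5 or 6, left 0 genes called. Without Olig2 array 3, 2 genes were called, without array 2 or 4, 7, and without array 1, 10. The differences moved little: over the 10 fits that each left out an array, Epha3 ran from 2.47 to 2.83 (adjusted p 0.0132 to 0.298 by limma), Itih3 from 2.00 to 2.26 (0.0254 to 0.365), Ehbp1 from -2.01 to -1.79 (0.0145 to 0.298) and Otx1 from -4.19 to -3.66 (0.00383 to 0.365). None of the 4 genes changed direction in any of 33 alternative settings. Epha3 was called in 26 of them and the other 3 genes in 20 each. The direction was fixed in advance for fits on fewer arrays, since the ranges do not overlap. Changes of filter or moderation left the differences as they were.

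**Figure D2:**
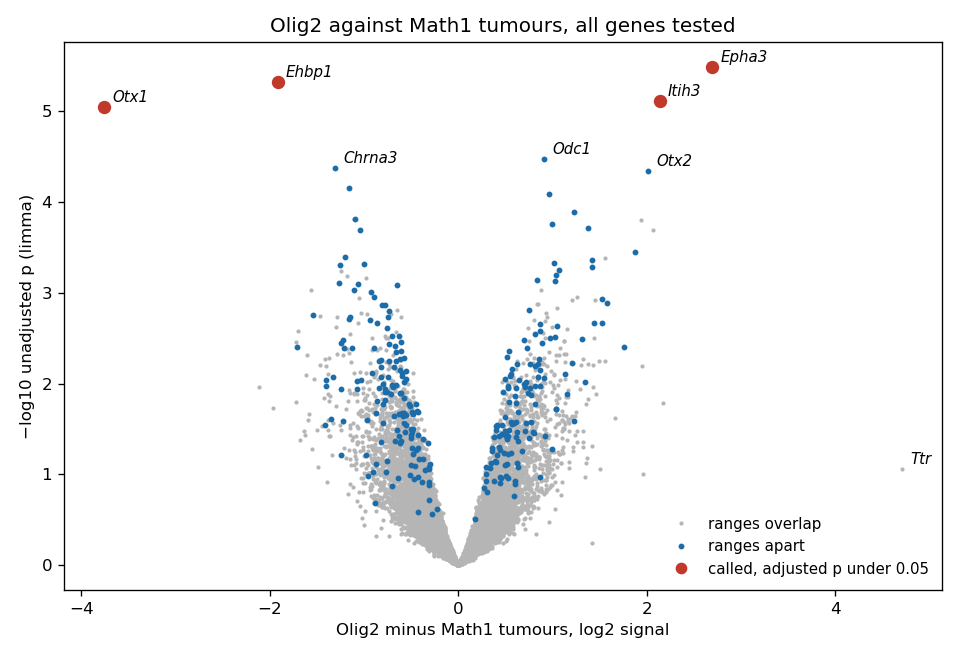
Each point is a gene: the x axis gives Olig2 minus Math1 tumours in log2 signal, the y axis -log10 of the unadjusted limma p. Of 13527 genes, 279 have ranges that do not overlap between the groups (blue), and the 4 genes in red passed an adjusted p under 0.05.

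Over all genes, the ranges of the 2 groups did not overlap for 279 genes (2.06%), 134 with the Olig2 arrays above (0.991%) and 145 below (1.07%). For a gene without a difference, a share of 0.00833 of the 120 possible splits puts every Olig2 array above, and the same share below. The shares seen were close to that, so ranges apart do not by themselves mark a gene as different. An unadjusted p under 0.05 was reached by 1108 genes (8.19%), 508 higher (3.76%) and 600 lower (4.44%). The median difference over all genes was -0.05. Of the squared distance between the 10 arrays over all genes, 11.6% lay between Olig2 and Math1 tumours (exact permutation test over all 120 splits, one-sided p = 0.4, the smallest possible being 0.00833).

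The 7 Olig2 arrays were not alike. By signal brightness and by the ratio of 3′ to 5′ control probe sets of Gapdh and Actb, a sign of RNA integrity, they fell into 3 technical sets, a split made after seeing the data. Arrays 1 and 2 were bright (2% trimmed means of 153 and 205) with low log2 ratios (0.31 and 0.13), as were all 3 Math1 arrays (140 to 160, and -0.07 to 0.46). Arrays 3 and 4 were dim (66.3 and 81.0) with ratios of 1.72 and 1.78, and arrays 5 to 7 were dim (42.6 to 77.9) with ratios from -0.15 to -0.12. The median correlation with the Math1 arrays over all genes was 0.946, 0.892 and 0.898 for the 3 sets, against 0.947 among the Math1 arrays themselves. As a description, 57.5% of the squared distance among the 7 Olig2 arrays lay between the sets. Any split of 7 arrays into 3 sets takes up part of the distance. This share therefore cannot be set beside the 11.6% between Olig2 and Math1 tumours. The median SD of a gene was 0.51 over all Olig2 arrays, 0.26 over Math1 arrays, and 0.24, 0.26 and 0.34 within the sets. Set and tumour cannot be told apart here, since each tumour was measured on 1 array.

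Against the same 3 Math1 arrays, Olig2 arrays 1 and 2 alone gave 0 called genes by limma, with 450 at an unadjusted p under 0.05. Arrays 3 and 4 gave 170 (1.26%), 57 higher (0.421%) and 113 lower (0.835%), and arrays 5 to 7 gave 1505 (11.1%), 592 higher (4.38%) and 913 lower (6.75%). Genes called in the same direction in both dim sets numbered 19, which is 11.2% of the 170 and 1.26% of the 1505, and another 8 were called in opposite directions. Of all genes, arrays 5 to 7 called 11.1% and arrays 3 and 4 called 1.26%, in either direction. The 19 are thus close to the overlap that these shares alone would give. All 4 genes above were among the 19, but they were called from these same arrays, so this is no separate support.

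Single genes show how far the sets lay apart; 4 are given here, chosen after their values were seen. Gpr27, an orphan G-protein-coupled receptor, had 6.79, 7.98 and 7.00 on Olig2 arrays 5 to 7 and at most 3.54 on arrays 1 to 4. Aldh2, a mitochondrial aldehyde dehydrogenase, had 4.00, 3.49 and 3.39 on arrays 5 to 7 and 7.34 to 7.94 on arrays 1 to 4. Narf lay at the floor on arrays 3 and 4 and at 6.58 to 7.68 on the other Olig2 arrays. Ube2d3, a ubiquitin-conjugating enzyme, had 9.05 and 8.25 on arrays 3 and 4 and 11.27 to 12.70 on the others. The part of array quality in these differences was not tested.

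The values of the 4 called genes by set follow as a description: since their ranges do not overlap, any subset of the Olig2 arrays has the same direction. For Epha3 the difference from Math1 was 3.13 (arrays 1 and 2, adjusted p = 0.278 by limma), 2.58 (arrays 3 and 4, 0.0456) and 2.48 (arrays 5 to 7, 0.00666). Itih3 differed by 1.72 (adjusted p = 1), 2.26 (0.0377) and 2.33 (0.00295), each by limma. Ehbp1 differed by -1.68 (adjusted p = 0.928), -1.90 (0.0419) and -2.09 (0.00273), and Otx1 by -4.28 (0.278), -3.93 (0.0374) and -3.30 (0.0146), in the same fits. None of the 4 was called from arrays 1 and 2, the set with the brightness and ratio of the Math1 arrays. The adjusted p also depends on how many other genes passed in the same fit (0, 170 and 1505), so it does not rank the sets. In the same order, the SE was 0.62, 0.64 and 0.56 for Epha3 and 0.84, 0.85 and 0.85 for Otx1. Epha3 had its largest difference in arrays 1 and 2. The Otx1 differences are bounds, since every set holds an array at the floor, and they cannot be ranked. With the technical set as a block, Epha3 was called (3.34, adjusted p = 0.00819 by limma), while Itih3 (1.81), Ehbp1 (-1.57) and Otx1 (-3.87) were not (adjusted p = 0.517 each).

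**Figure D3:**
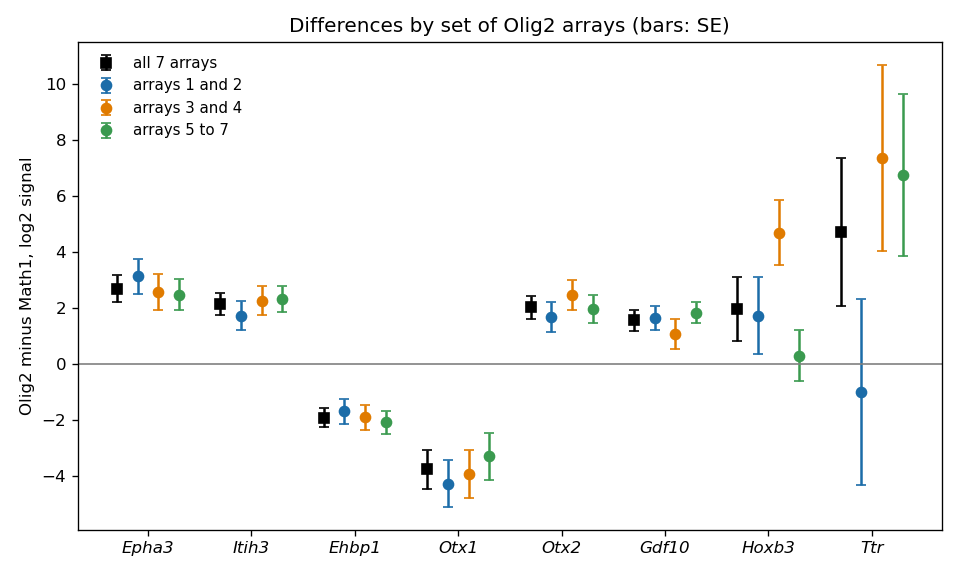
Olig2 minus Math1 difference in log2 signal (points) with its SE (bars) for 8 genes, over all 7 Olig2 arrays (black squares) and within each technical set (colours). The 4 called genes and Otx2 stay on one side of 0, Hoxb3 reaches 4.68 in arrays 3 and 4 alone, and Ttr changes sign between sets.

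Otx1 and Ehbp1 are neighbours on chromosome 11 in RefSeq's gene order, with no other measured protein-coding gene between them. Their values were therefore compared, after they had been called, on the 11 tumour arrays of the Tlx3, hGFAP and Ptc1+/- groups, which the contrast did not use. There Ehbp1 was high where Otx1 was high (Pearson r = 0.893, permutation p = 4e-05, adjusted p = 0.0004 over 10 neighbours; Spearman rho = 0.927, permutation p = 0.00011, adjusted p = 0.0011). These permutations, and those below over the 11 or the bright arrays, shuffled values without regard to group. Differences between the groups therefore enter these r and p values. Without the 2 arrays farthest from the Otx1 median r was 0.779, and within the 6 hGFAP arrays it was 0.849 (exact permutation p = 0.0111, adjusted p = 0.0556). Within the 6 bright arrays of low ratio among the 11 it was 0.926 (exact permutation p = 0.0111, adjusted p = 0.111), and none was taken over the 5 dim ones, since fewer than 6 arrays give no correlation here. The hGFAP array with the highest Otx1, at 8.18, also had the highest Ehbp1 of all 27 arrays, at 10.91.

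Of the 9 other measured neighbours, 5 on either side of Otx1 in all with Ehbp1, none was called between Olig2 and Math1 tumours. Tmem17, a transmembrane protein of the ciliary base, which comes next after Ehbp1, followed Otx1 on the 11 arrays (r = 0.773, permutation p = 0.00526, adjusted p = 0.0263; rho = 0.827, permutation p = 0.00291, adjusted p = 0.0145), with r = 0.827 without the 2 farthest arrays and 0.763 within hGFAP (exact permutation p = 0.0736, adjusted p = 0.184). Within the 6 bright arrays its r was 0.667 (exact permutation p = 0.168, adjusted p = 0.336). Its Olig2 minus Math1 difference was -0.41 (SE 0.58). Wdpcp, a planar cell polarity and cilium gene on the other side of Otx1, had r = 0.621 (permutation p = 0.0402, adjusted p = 0.133) and rho = 0.345 (permutation p = 0.298, adjusted p = 0.425) and differed by -0.87 (SE 0.47). Its r was 0.796 without the 2 farthest arrays, 0.947 within hGFAP (exact permutation p = 0.00833, adjusted p = 0.0556) and 0.867 within the bright arrays (exact permutation p = 0.0319, adjusted p = 0.144). Commd1, a regulator of copper and protein transport, had r = 0.177 over the 11 arrays (permutation p = 0.606, adjusted p = 0.673), 0.629 without the 2 farthest, 0.890 within hGFAP (exact permutation p = 0.0194, adjusted p = 0.0648) and 0.818 within the bright arrays (exact permutation p = 0.0431, adjusted p = 0.144). Within hGFAP, Wdpcp and Commd1 thus had a higher r with Otx1 than Ehbp1 had; these differences in r were not tested. The 7 neighbours other than Ehbp1, Tmem17 and Wdpcp had adjusted p from 0.133 to 0.85 for r, and differences from -0.59 (B3gnt2) to 0.21 (Cct4).

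**Figure D4:**
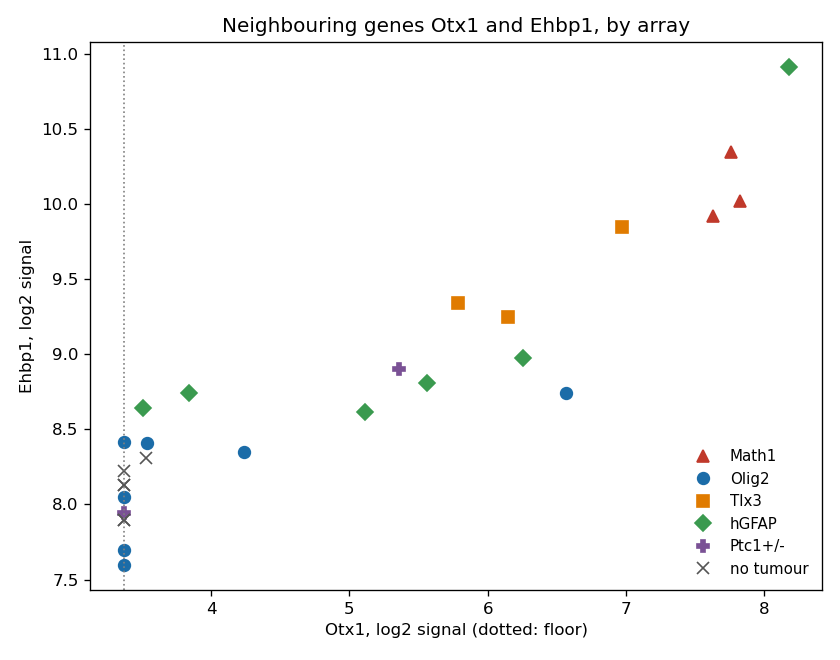
Ehbp1 (y axis) against Otx1 (x axis) in log2 signal on each of the 27 arrays, by group, with the floor dotted. The 3 Math1 tumours and 1 hGFAP tumour lie at the upper right, and 6 of the 7 Olig2 tumours lie at 4.24 or lower for Otx1 with the tissue without tumour.

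Just short of the threshold were Otx2, Odc1 and Chrna3 (adjusted p = 0.0867 each by limma); the last pair was chosen after its values were seen. Otx2, the close relative of Otx1 and a transcription factor of the rhombic lip and choroid plexus, had 7.95, 7.55 and 8.07 on the Math1 arrays and ran from 9.19 through 9.78 to 10.79 on the Olig2 arrays. Its ranges did not overlap and the difference was 2.02 (SE 0.42), of the opposite sign to that of Otx1. Within the sets it was 1.66 (adjusted p = 1), 2.45 (0.0374) and 1.97 (0.0142) by limma. It was called in 8 of 33 settings, such as median scaling. Odc1, the first enzyme of polyamine synthesis and a Myc target, differed by 0.90 (SE 0.18), and Chrna3, a nicotinic receptor subunit, by -1.31 (SE 0.27), both with ranges apart.

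A single probe set behaved unlike its gene and was noticed after its values were seen. Pdxdc1 encodes a decarboxylase-like protein, and its brightest probe set had a difference of 0.99 (SE 0.23, adjusted p = 0.162 by limma). A different probe set of it instead had 8.73, 8.62 and 8.45 on the Math1 arrays and ran from 3.37 to 6.30 on the 24 other arrays, Olig2 and all other groups alike. When every probe set was tested by limma, it had the smallest p (difference -3.34, SE 0.44, adjusted p = 0.000781), and 6 of 24752 probe sets were called. The 2 other probe sets of Pdxdc1 differed by 0.42 and 0.58, so the probe sets of this gene disagree.

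No gene of the drivers or of the core pathway was called, beside 0.0296% of all genes. Smo itself (whether its probe set reads SmoM2 was not tested) had 8.66, 8.61 and 8.83 in Math1 tumours and 8.26 to 9.30 in Olig2 tumours (difference -0.06, SE 0.22). Gli1, the transcription factor read as the output of the pathway, had 9.31, 9.33 and 9.46 against 7.76 to 9.74, the lowest Olig2 values being those of arrays 3 and 4 (7.76 and 8.53). Ptch1 differed by 0.21 (SE 0.27) and Mycn by -0.63 (SE 0.46). Atoh1, the gene of Math1, had 10.09, 10.21 and 9.89 against 8.32, a median of 10.18 and 11.35, with a difference of 0.03 (SE 0.48). The Olig2 gene had 8.26, 8.27 and 8.08 in Math1 tumours and 6.41, a median of 7.71 and 8.75 in Olig2 tumours, a difference of -0.56 (SE 0.43). Tlx3 differed by -0.30 (SE 0.50) and Gfap by 0.13 (SE 0.70). The groups overlapped for each of these genes, with adjusted p from 0.735 to 0.995 by limma.

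In 42 lists of pathway and cell type genes, which held 421 tested genes, 0 were called higher or lower, beside 0.0296% of all genes. With so few genes called anywhere, a count of 0 says little about these lists. Of 13 Hedgehog components 3 lay above 0, with a median difference of -0.18 and extremes at Gli3 (0.70) and Shh (-0.93). Of 12 output genes 8 lay above 0 (median 0.21), from Mycn at -0.63 to Igf2, an insulin-like growth factor, at 1.17. The 14 granule neuron precursor genes had a median of -0.26, against -0.05 over all genes, with Zic1 at -0.03, Barhl1 at -0.42 and Barhl2 at 1.11. As a check on the label, the 14 genes had a mean level of 9.31 to 9.42 on the Math1 arrays, 9.06 to 9.67 on the Olig2 arrays and 7.03 to 7.62 without tumour.

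Genes of neural stem cells had a median of 0.36, and 8 of the 13 tested lay above 0. An unadjusted p under 0.05 by limma was reached by 5, all with the Olig2 tumours higher, beside 3.76% of all genes. They were Vim (1.21), Tnc (0.92), Nes (0.89), Prom1 (0.76) and Sox2 (0.73), none called (smallest adjusted p of the list 0.485 by limma). Vim, an intermediate filament of radial glia, had 10.46, 10.03 and 9.56 in Math1 tumours and 10.59 to 12.01 in Olig2 tumours, and with Prom1 its ranges did not overlap. Sox2 and Nes were highest on Olig2 array 4 (9.31 and 8.31). Hes5, a Notch target, was the lowest of the list at -0.74. The list mean lay below the Math1 mean on Olig2 arrays 3 and 6 (-0.28 and -0.18). It lay 0.27 to 0.66 above it on the other Olig2 arrays.

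All 10 oligodendrocyte precursor genes lay below 0 (median -0.28), from Nkx2-2 at -0.98 to Vcan at -0.06, with Pdgfra, the growth factor receptor of these cells, at 11.63, 10.91 and 11.17 against 9.89 to 10.99 (-0.78, SE 0.31, adjusted p = 0.522 by limma). The list's mean on Olig2 array 6 was the lowest, at 7.36, against 8.55 to 8.64 on the Math1 arrays. Among 16 genes of astrocytes and Bergmann glia 11 lay above 0 (median 0.34), led by Gdf10, a growth factor of Bergmann glia, at 1.55 (SE 0.39, adjusted p = 0.275 by limma). Clu (0.97) and Slc1a3 (0.58) were also above 0, and Aqp4, the water channel of astrocyte endfeet, had 10.96, 10.80 and 10.21 against 9.26 to 10.37 (-1.05, SE 0.29, adjusted p = 0.362).

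Other derivatives of the rhombic lip had a median of 0.27 over 6 genes, with Otx2 highest and Lhx2, a LIM homeodomain factor, at 1.04 (SE 0.27, adjusted p = 0.306 by limma). Lhx2 had 6.61, 6.94 and 6.50 against 6.97 to 8.26, and the ranges were apart. Brainstem neuron genes were all below 0 (6 of 6, median -0.64), with Isl1 lowest at -0.83.

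No proliferation gene was called, beside 0.0296% of all genes. The 25 mitosis genes had a median of -0.01, from Ube2c (-0.46) to Birc5 (0.65). The 24 DNA replication genes had a median of 0.20 with 18 above 0, and Mcm3, a subunit of the replicative helicase, had 8.42, 8.30 and 8.84 against 8.92 to 9.92 (0.86, SE 0.26, adjusted p = 0.401 by limma). Of 13 ribosome biogenesis genes 11 lay above 0 (median 0.23), and on arrays 5 and 7 their mean was 0.77 and 0.56 above the Math1 mean. Among 13 glycolysis and hypoxia genes Hk2, a hexokinase, led at 0.93 with a list median of 0.02.

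**Figure D5:**
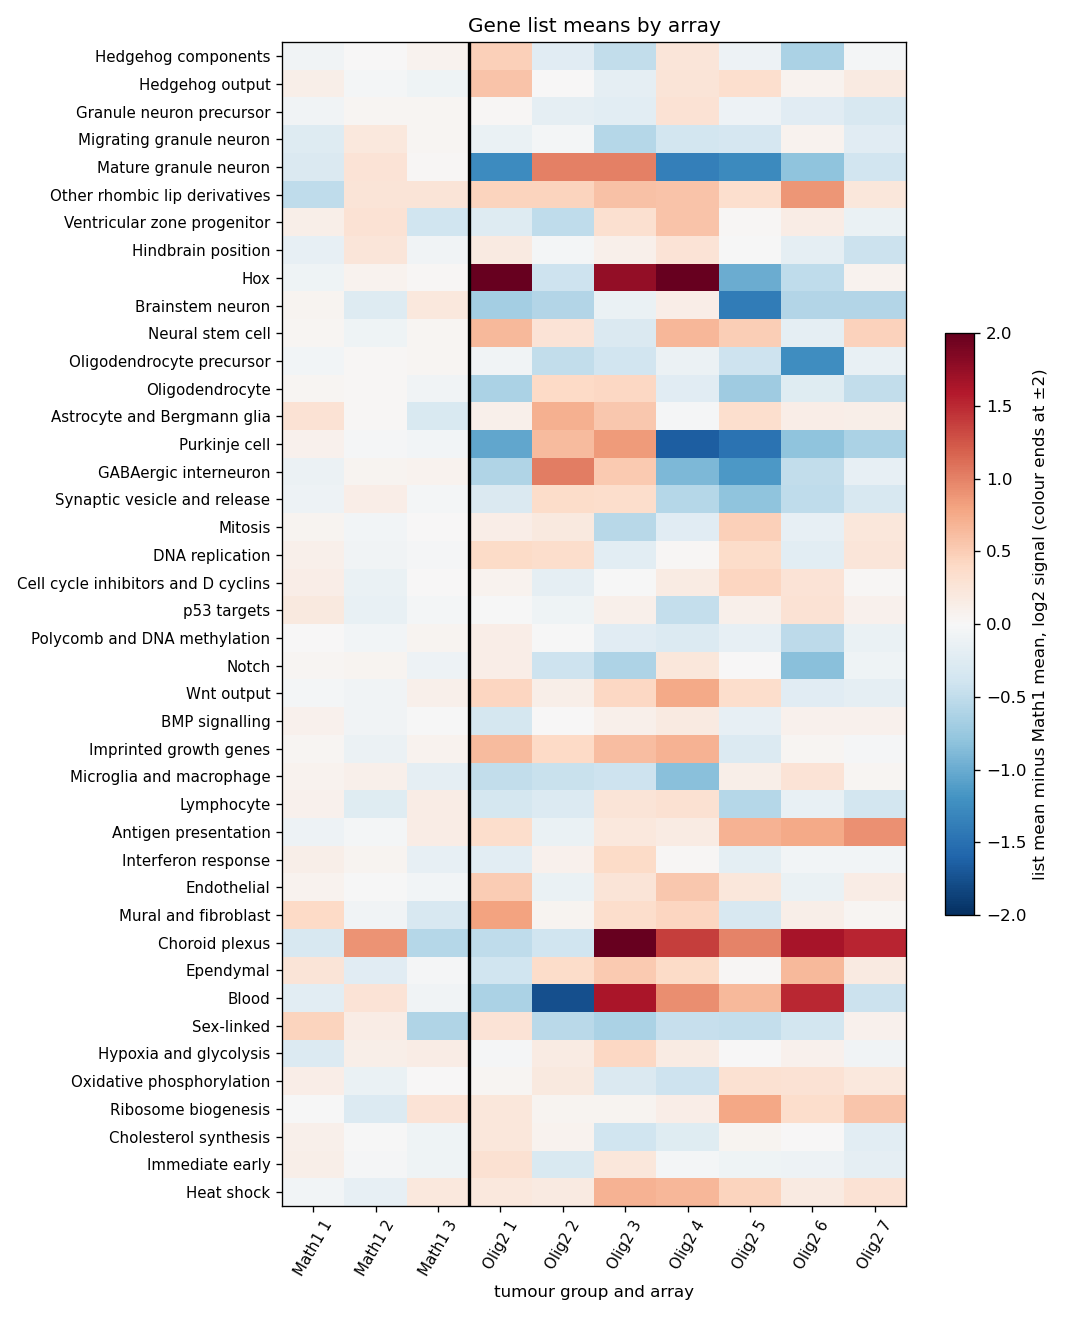
Mean over the tested genes of each of the 42 lists (rows) on each Math1 and Olig2 array (columns), as the difference from the Math1 mean in log2 signal; colour is capped at ±2. The Hox, Blood (2 genes), choroid plexus, Purkinje cell, mature granule neuron and GABAergic interneuron rows vary most over the Olig2 arrays.

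The widest differences were between Olig2 tumours. Hoxb3 and Hoxb2, which pattern the hindbrain and spinal cord, were high on Olig2 arrays 1, 3 and 4: Hoxb3 had 9.21, 7.42 and 11.08 there, and 3.37 to 5.37 on arrays 2, 5, 6 and 7. Hoxb2 had 7.87, 6.55 and 8.70 there and 3.37 to 4.61 on the other 4. The Math1 tumours had 4.98, 4.86 and 3.85 for Hoxb3. These 3 arrays do not follow the technical sets. The group differences were 1.96 (SE 1.15) for Hoxb3 and 0.96 (SE 0.98) for Hoxb2, and Hoxb3 was called only for arrays 3 and 4 (4.68, adjusted p = 0.0456 by limma) among the sets.

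Ttr, the transthyretin gene of the choroid plexus, had the largest SD of any gene over the Olig2 arrays (3.99). It had 3.65 and 5.32 on arrays 1 and 2 and 11.62 to 13.70 on arrays 3 to 7, and 3.59, 9.51 and 3.37 on the Math1 arrays (difference 4.71, SE 2.63, adjusted p = 0.645 by limma). Of the 6 choroid plexus genes tested all lay above 0, but the median was 0.16 and Kl, another marker, differed by 0.11. The summed list had a mean of 4.88 to 6.36 on Math1 arrays and 4.95 to 7.48 on Olig2 arrays. Its part in other results was not tested.

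Genes of mature cerebellar neurons and of myelin varied among the Olig2 tumours. The means of the mature granule neuron, Purkinje and GABAergic interneuron lists were highest on Olig2 arrays 2 and 3. Gad1, the enzyme of GABA synthesis, had 9.11 and 8.92 on Olig2 arrays 2 and 3 and 3.86 to 6.26 on the others, against 7.28, 7.35 and 7.13 in Math1 tumours and 11.20 ± 0.20 (SD, n = 6) without tumour. Pcp2, a Purkinje cell protein, had 9.63 and 8.70 on arrays 2 and 3 and 4.06 to 7.39 on the others, against 8.83, 8.67 and 8.65. Mbp, a myelin protein, was likewise highest on arrays 2 and 3, at 11.27 and 11.05. Gad1 (-1.04) and Pcp2 (-1.67) had the lowest differences of their lists, and Gad2 (0.28) and Slc1a6 (0.87) the highest. As lists, mature granule neuron genes had a median difference of -0.31 over 13 genes, with 4 above 0. Purkinje genes had -0.69 over 10 and GABAergic interneuron genes -0.23 over 8, each with 2 above 0. None was called. The mature granule neuron mean was 1.01 and 1.00 above the Math1 mean on arrays 2 and 3, and on the other Olig2 arrays the difference from it ran from -1.37 to -0.38.

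Among immune genes, antigen presentation had a median of 0.33 over 10 genes, with H2-Ab1, a class II chain, at 1.502 (SE 0.85) and its highest value, 8.18, on array 7. Microglia and macrophage genes had a median of -0.20 over 12, with 4 above 0, Lyz2 highest at 0.50 and Cx3cr1 lowest. Their mean differed from the Math1 mean by -0.83 to -0.41 on Olig2 arrays 1 to 4. On arrays 5 to 7 it lay 0.04 to 0.27 above it. Cx3cr1, the fractalkine receptor of microglia, had 8.43, 8.05 and 8.02 in Math1 tumours and 5.61 to 7.99 in Olig2 tumours, with ranges apart (-1.07, SE 0.40, adjusted p = 0.508 by limma). The other genes with large spread over the Olig2 arrays were Rpgrip1, a protein of photoreceptor cilia, with 6.12 to 12.50 (difference -2.11, SE 0.77, adjusted p = 0.508), Islr2 (3.37 to 8.41), the interferon-inducible Mndal (3.37 to 8.95) and the actin-binding Pfn1 (4.55 to 10.32). Pfn1 had 4.55 and 6.16 on arrays 3 and 4 and at least 8.39 on the other Olig2 arrays.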

How the data were processed

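Signals of 27 Affymetrix mouse arrays were used, 7 Olig2 and 3 Math1 tumours for the comparison. For 45101 probe sets the authors deposited signal intensities on a linear scale, made with MAS5, per the submitters' processing notes; version and scaling target are not given in the sources used here, and no detection calls were used, so low values can be background. MAS5 does not equalise arrays unless scaled, and the trimmed means ran from 42.6 to 206. Each array was therefore rescaled to a common 2% trimmed mean of 123.6, raised to a floor at the 20th percentile (10.3), and put on the log2 scale. Probe sets with 1 gene in the platform annotation and above 45.6 on at least 3 arrays were kept (24752), and the brightest per gene was used (13527 genes). Of the others, 932 had several genes and 9211 were unlisted.

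A linear model in limma 3.58.1 (R 4.3.3) with 6 group means, empirical Bayes moderation with a trend and a robust fit gave two-sided p-values, adjusted by Benjamini-Hochberg over all genes. Genes were called at an adjusted p under 0.05. The fit was run on simulated data with independent normal values, the same spread in all groups and no technical sets. That run cannot show how the fit behaves with the unequal spread of these groups. Named genes were the 7 genes of the mouse design, all called genes and the 8 with the largest SD over Olig2 arrays. The extremes of 42 lists were added. So were the next 8 genes by p after the called ones, chosen after their values were seen. Xist, Y-linked, haemoglobin and immunoglobulin genes were left out of the called and SD lists. The comparison, members and lists were chosen with earlier results of these data known. Permutation p-values are two-sided unless stated, exact for 6 arrays and from 100000 resamples for 11. Alternatives changed scaling, floor, filter, probe set choice, arrays in the model, moderation, weights and covariates, and left out each array. The technical sets, by a trimmed mean of 100 and a log2 3′ to 5′ ratio of 1, were added after seeing the data. The number of arrays limits the precision.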

Additional observations from a re-analysis of the deposited data

Results flagged for a closer look

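Of 103 genes whose 7 Olig2 arrays were checked for a value far from the others by Dixon's test, 5 stood out; chance flags about 1 in 20. Otx1 was 6.56 on array 7 against 3.37 to 4.24 on the other 6 (gap over range 0.728). Gdf10 was 5.30 on array 4 against 6.84 to 7.67 (0.648), and Hmgcs1, an enzyme of cholesterol synthesis, was 10.75 there against 9.76 to 10.13 (0.628). On array 2, Dll1, a Notch ligand, was 5.40 against 5.86 to 6.17 (0.589), and Gar1, a nucleolar protein, was 7.998 against 8.69 to 9.22 (0.570).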

How the results depend on the processing

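The count of called genes, 4 by the main choices, was 1 without rescaling, where the median of all genes lay at -0.80, 2 with the 4 SmoM2 groups alone, 2 with brightness as a covariate, 16 without the 5 arrays of highest 3′ to 5′ ratio, 19 with a weight per array and 18 with a weight per group. It was 0 with Olig2 arrays 1 and 2 only, 170 with 3 and 4, 1505 with 5 to 7 and 1 with the technical set as a block, and leaving out 1 array gave 0 to 10. With fewer arrays both samples and spread change, and the cause was not tested. Every other setting gave 3 to 6, though with median scaling Ehbp1 was not called (-1.85, adjusted p = 0.116 by limma) and Otx2 was. Blocking on the replicate number gave 3 (Epha3 2.78, Otx1 -4.02 and Otx2 2.03; Itih3 had adjusted p = 0.065 and Ehbp1 0.0617). The numbers do not pair the arrays: correlations of their deviations were 0.05, 0.12 and 0.02. The share of distance between the groups was 9.60% to 21.7% in the alternatives run for it (other scaling, floor, filter, probe set mean or distance, and each array left out), each with exact p over 0.05. Of 101 uncalled named genes, 31 were called in some setting and 59 changed sign in some setting. One of these settings, Olig2 arrays 5 to 7 only, called 11.1% of all genes. Some of the 101 were named for their small p in the main fit. The share of all genes called in any setting was not taken, so the 31 say nothing particular about the named genes. Low signals limit Otx1, whose values at the floor have no order.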
